A study of Rattus norvegicus with 8 samples.

Results

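The comparison described here set the ductus arteriosus against the aorta within 1 inbred rat strain, Brown-Norway (BN). It used the 4 arrays of the series that the labels assign to this strain, 2 of ductus and 2 of aorta, out of 8 in all. The other 4 arrays hold the same vessels of the F344 (Fischer344) strain, 2 of ductus and 2 of aorta. Every animal was full-term and untreated as far as the labels say, and every vessel was taken 1 h after birth. Tissues were pooled before extraction and 150 ng of total RNA per sample was biotin-labelled for the rat whole-transcript gene array. The labels number the replicates but do not say that they came from separate litters or separate pools, so every p-value below measures only the spread between these samples, which may be technical.

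Before birth the ductus arteriosus connects the pulmonary artery with the descending aorta and lets blood bypass the lungs. Prostaglandin E2 and low oxygen keep it open in the fetus, and after birth its smooth muscle contracts and the narrowed vessel is then remodelled shut. Its smooth muscle comes largely from the neural crest, it builds intimal cushions rich in hyaluronan, and it lays down less orderly elastic fibres than the aorta beside it, which stays an elastic vessel for life. BN is an inbred strain studied for its weak vascular elastic fibres.

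Expression is given on the log2 scale of the deposited array values, so that a difference of 1 is 2-fold. Values of different genes cannot be ranked against each other, because each probe set has its own brightness. Both tissues carried the defining genes of vascular smooth muscle. Smooth muscle actin, Acta2, read 13.71 and 13.73 in the ductus and 13.64 and 13.66 in the aorta. Smooth muscle myosin, Myh11, read 12.45 and 11.99 in the ductus and 12.12 and 11.73 in the aorta. The vascular actin therefore lay between 13.64 and 13.73 on all 4 arrays, while myosin was higher on replicate 1 than on replicate 2 of both vessels. The Acta2 probe set lies near the top of the measured range, which ended at 14.2, so its close values do not show equal expression.

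The 2 BN ductus samples differed more from each other than the replicates of any other group. The SD across genes of replicate 1 minus replicate 2 was 0.349 in the BN ductus, 0.258 in the BN aorta, 0.223 in the F344 ductus and 0.196 in the F344 aorta. In the BN ductus 200 genes (1.38% of those measured) lay at least 1 log2 unit apart, 112 higher on replicate 1 and 88 higher on replicate 2. In the other 3 groups 17 to 20 genes lay that far apart. Red cell genes and thymocyte genes were high on ductus replicate 1. Haemoglobin beta, Hbb, read 13.01 on ductus replicate 1 and 10.58 on ductus replicate 2, against 12.70 and 10.98 on the aorta arrays. Rag1, the recombinase of developing lymphocytes, read 8.20 on ductus replicate 1 and 5.83 on replicate 2, with 5.88 and 5.78 in the aorta. So haemoglobin split the replicates of both vessels, and Rag1 stood apart on a single array. Over the lists, 5 of 11 erythroid genes and 5 of 17 thymocyte and lymphocyte genes were at least 1 unit higher on ductus replicate 1.

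Ductus replicate 2 carried more of several cardiac, outflow tract and cartilage genes. Gata4, a heart and outflow tract transcription factor, read 6.95 on replicate 1 and 8.90 on replicate 2, against 6.24 and 6.63 in the aorta. Cardiac troponin T, Tnnt2, read 7.47 and 9.24 in the ductus and 6.77 and 7.27 in the aorta. Cardiac actin, Actc1, read 7.98 and 9.71 in the ductus and 7.58 and 7.98 in the aorta. Each of these 3 genes was highest on ductus replicate 2 and none was called different between the tissues. Over the lists, 4 of 26 outflow and neural crest transcription factors, 3 of 23 cardiac muscle genes and 3 of 14 cartilage genes were at least 1 unit higher on replicate 2. Tnnc1, the slow troponin C gene, went the other way, at 11.02 and 9.13 in the ductus and 10.002 and 9.12 in the aorta. The glutamate receptor subunit Gria1 was the most separated gene towards replicate 2, at 8.56 and 10.72 in the ductus with 9.40 and 9.34 in the aorta.

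**Figure D1:**
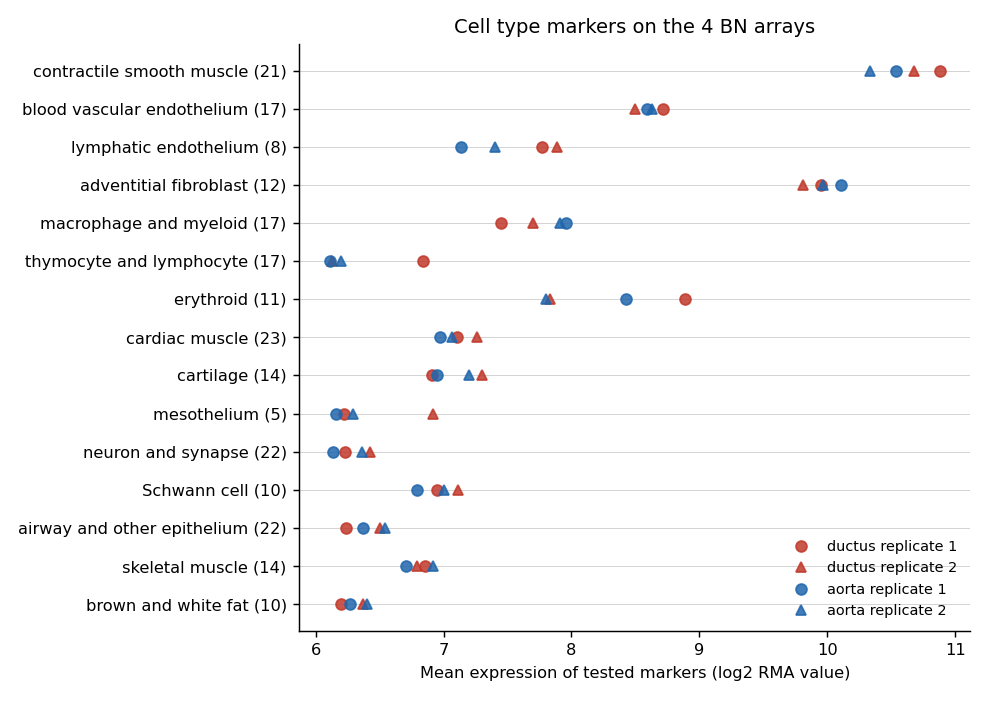
Mean log2 expression of the tested markers of each cell type (number in parentheses) on each of the 4 BN arrays, with red for ductus, blue for aorta, circles for replicate 1 and triangles for replicate 2. The thymocyte mean is 6.84 on ductus replicate 1 against 6.11 to 6.20 elsewhere, and the mesothelium mean lies at 6.92 on ductus replicate 2 against 6.16 to 6.29 elsewhere.

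The mean level of each marker list puts these shifts in scale. The 17 thymocyte and lymphocyte markers averaged 6.84 and 6.13 in the ductus and 6.11 and 6.20 in the aorta. The 11 erythroid markers averaged 8.88 and 7.83 in the ductus and 8.42 and 7.80 in the aorta. For both lists the high array was a replicate 1, in the ductus alone for thymocyte genes and in both vessels for red cell genes. The 5 mesothelial markers averaged 6.22 and 6.92 in the ductus and 6.16 and 6.29 in the aorta, and the 8 lymphatic endothelial markers 7.77 and 7.89 against 7.14 and 7.40. The 17 macrophage markers averaged 7.45 and 7.70 in the ductus and 7.96 and 7.91 in the aorta. No member of these 5 lists was called between the tissues. The median difference of the thymocyte and lymphocyte genes from the aorta mean was 0.56 on ductus replicate 1 and -0.01 on ductus replicate 2. The part of these cell types in the results below was not tested. In whole tissue, fewer cells of a type and less RNA per cell cannot be told apart.

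At an adjusted p below 0.05 (limma, 4 group means fitted to all 8 arrays, two-sided, Benjamini-Hochberg over 14506 genes), 262 genes differed between BN ductus and BN aorta, or 1.81% of those tested. The F344 arrays enter this fit through the shared spread, and with only the 4 BN arrays fitted 16 genes were called. The F344 replicates lay closer together than the BN ductus replicates, so an SE below can understate the spread of the BN arrays. Of the 262, 143 were higher in the ductus (0.986%) and 119 lower (0.82%). All 262 had both ductus arrays on the same side of both aorta arrays, a pattern that 18.7% of all genes showed upwards and 18.5% downwards. Among the 143 higher genes, 55 are odorant, vomeronasal or taste receptor genes, whose probes are dim in a vessel wall. The remaining 88 included 44 that were at least 2-fold higher. All 119 lower genes lay outside the chemosensory families, and 41 of them were at least 2-fold lower.

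The calls were refitted with each array left out in turn. With 1 array of a tissue left, that array is assumed to vary like the other groups, and leaving out a BN ductus array also takes the replicate pair with the widest spread out of the shared estimate. Refitted without ductus replicate 1, 217 of the 262 genes were still called, and without ductus replicate 2, 196 were. A total of 165 genes (63.0%) were called with either ductus array left out, 91 higher and 74 lower. Without aorta replicate 1, only 16 of the 262 were still called, and without aorta replicate 2, 85 were. The number of genes called in all was 600 without ductus replicate 1 (4.14%), 453 without ductus replicate 2 (3.12%), 16 without aorta replicate 1 and 96 without aorta replicate 2. Leaving out an F344 array, which takes no part in the difference but does enter the shared spread, left 114 or 120 calls. In every one of the 8 fits that left out an array, 15 genes remained called: Tfap2b, Clic6, Gpm6b, Sorbs2, Epyc, Lypd6, Ppargc1a, Inhba, Dgkb and Pum3 higher, and Hoxa7, Avpr1a, Fgf7, Fap and Prima1 lower. Among these, Dgkb, Pum3 and Prima1, are named here after their values were seen. Of the 73 named genes called, 62 kept the call without ductus replicate 1 and 69 without ductus replicate 2. The calls lost were those of Atf3, Rgs5, Ghr, Sema3c, Col1a2, Col14a1, Hoxd4, Fgf16, Kcnab1, Scara5 and Slc7a3 without replicate 1, and of Scn7a, Pappa, Kcnk6 and Spp1 without replicate 2.

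**Figure D2:**
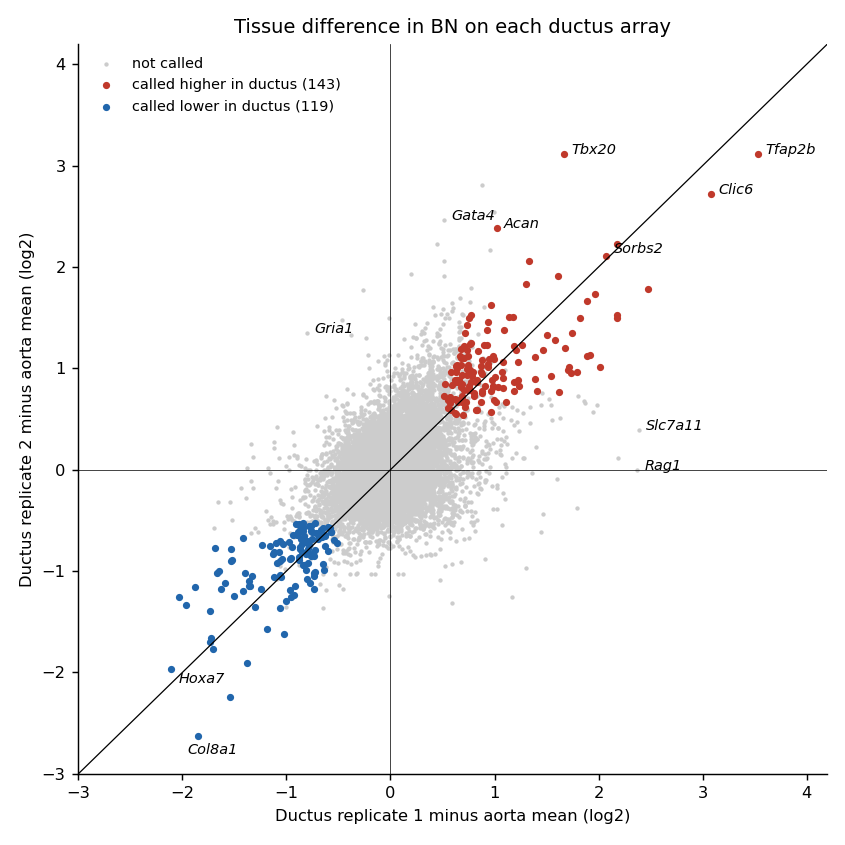
Log2 difference from the BN aorta mean for ductus replicate 1 (horizontal) and ductus replicate 2 (vertical), 1 point per gene, with the 143 genes called higher in red, the 119 called lower in blue and the diagonal marking equal replicates. Tfap2b, Clic6 and Sorbs2 lie close to the diagonal, Tbx20, Acan and Gata4 lie above it, and Rag1 and Slc7a11 lie far to the right of it without being called.

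Transcription factors of the outflow tract and neural crest led the higher genes. Tfap2b, the AP-2 factor whose mutation causes a syndrome with patent ductus, read 9.66 and 9.25 in the ductus against 5.51 and 6.75 in the aorta, the widest difference of any named gene. Its mean was 10.01-fold higher in the ductus (log2 difference 3.32 ± 0.33 SE, adjusted p = 0.00259). Its relative Tfap2a read 6.99 and 6.52 against 5.03 and 5.60, a difference of 1.44 ± 0.22 (adjusted p = 0.0154). In both AP-2 genes the aorta arrays were further apart than the ductus arrays, yet the tissues did not overlap. Tfap2c, the third AP-2 gene on the list, differed by -0.06 and was not called.

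Among T-box factors, which pattern the heart tube and outflow tract, Tbx20 had the highest difference and the least even replicates. Tbx20 read 8.42 and 9.87 in the ductus against 6.62 and 6.89 in the aorta, 5.24-fold higher in the mean (2.39 ± 0.36, adjusted p = 0.0158). Its SD was 1.02 in the BN ductus against 0.035 and 0.045 in the F344 ductus and aorta, whose spread enters this SE. Ductus replicate 2 stood 1.45 above replicate 1, and replicate 1 alone still lay above both aorta arrays. Its adjusted p was 0.1555 without aorta replicate 1 and 0.0623 without aorta replicate 2. Tbx3, a repressor of the working heart muscle programme, read 7.27 and 7.65 against 6.46 and 6.59 (0.93 ± 0.15, adjusted p = 0.0217). The list held 26 tested factors, of which these 4 were called higher, none was called lower, and the median difference was 0.29 beside -0.00 over all genes tested. Gata4 at 1.49, Gata5 at 1.08, Isl1 at 0.92 and Tbx5 at 0.77 did not pass the test. Of the 4 called factors, Tfap2b alone was still called without aorta replicate 1, and 2 were without aorta replicate 2.

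Promoter sequences are shown for the leading genes of each direction, because 2 of these genes belong to factor families (T-box and Hox) and the AP-2 gene Tfap2b led the list. The windows run from 250 bases before to 50 after the gene start in RefSeq on the rat build GRCr8, whose source animal is of the BN strain, and were taken for the 2 leading named genes in each direction that have an entry. Tfap2b, Clic6, Gpm6b, Mab21l2, Sorbs2, Grpr, Enpp2, Brinp1 and Rxfp1 have none in the table. Capitals mark each match to the AP-2 motif GCCNNNGGC, which reads the same on both strands. Tbx20 lies on the minus strand at chr8:31533960-31534259, Epyc on the plus strand at chr7:34323082-34323381, Col8a1 on the plus strand at chr11:56246532-56246831 and Hoxa7 on the minus strand at chr4:82648192-82648491. Each is printed 5′ to 3′ on the strand of its gene.
Tbx20: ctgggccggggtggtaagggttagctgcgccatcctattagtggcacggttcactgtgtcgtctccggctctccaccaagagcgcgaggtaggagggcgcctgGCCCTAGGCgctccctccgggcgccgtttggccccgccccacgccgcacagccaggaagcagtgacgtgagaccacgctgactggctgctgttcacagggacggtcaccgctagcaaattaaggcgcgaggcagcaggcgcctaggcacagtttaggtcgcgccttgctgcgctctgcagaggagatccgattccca
Epyc: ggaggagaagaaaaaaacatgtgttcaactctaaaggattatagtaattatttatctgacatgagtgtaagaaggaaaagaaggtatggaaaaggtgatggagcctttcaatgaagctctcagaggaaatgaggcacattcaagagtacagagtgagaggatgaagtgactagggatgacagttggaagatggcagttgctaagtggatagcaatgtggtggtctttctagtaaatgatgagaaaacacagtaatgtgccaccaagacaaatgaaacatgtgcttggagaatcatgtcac
Col8a1: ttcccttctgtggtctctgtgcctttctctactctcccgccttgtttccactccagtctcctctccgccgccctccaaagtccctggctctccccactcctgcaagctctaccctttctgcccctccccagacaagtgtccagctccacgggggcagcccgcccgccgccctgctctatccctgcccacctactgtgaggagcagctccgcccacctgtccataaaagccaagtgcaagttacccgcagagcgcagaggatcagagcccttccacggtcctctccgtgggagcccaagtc
Hoxa7: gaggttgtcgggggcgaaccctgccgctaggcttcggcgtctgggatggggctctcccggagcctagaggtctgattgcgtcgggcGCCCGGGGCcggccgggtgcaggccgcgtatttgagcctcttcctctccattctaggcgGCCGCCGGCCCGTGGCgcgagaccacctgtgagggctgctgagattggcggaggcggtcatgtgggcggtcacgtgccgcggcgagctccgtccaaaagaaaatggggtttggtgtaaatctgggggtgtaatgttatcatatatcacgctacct

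The Tbx20 window held 1 match, starting 147 bases before the gene start. The Hoxa7 window held 3, starting 164, 105 and 98 bases before it, and the last 2 overlap. The windows of Epyc and Col8a1 held none of these letters. Of all 27457 promoters listed, 15.7% held the motif, and 20.9% of the 11950 that belong to tested genes did. It was in 10 of the 62 matched promoters of genes called higher, chemosensory genes aside (16.1%), and in 22 of the 93 matched promoters of genes called lower (23.7%). The T-box motif AGGTGTGA, searched on both strands, was in 0 of the 62 and 1 of the 93, against 1.05% of tested genes. The CArG box, bound by serum response factor in muscle genes, was in 1 of each, against 1.28% of tested genes. A match describes letters only.

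After Tfap2b the leading higher genes were membrane, cytoskeletal and developmental genes. Clic6, of the chloride intracellular channel family, read 10.03 and 9.68 in the ductus against 6.65 and 7.26 in the aorta, 7.48-fold higher (2.90 ± 0.22, adjusted p = 0.0011). Gpm6b, a membrane proteolipid, read 9.90 and 9.96 against 7.43 and 8.03, 4.60-fold higher (2.20 ± 0.19, adjusted p = 0.00231). Sorbs2, an adaptor of actin and adhesion sites, read 9.35 and 9.38 against 7.26 and 7.28, 4.26-fold higher (2.09 ± 0.12, adjusted p = 0.000285). Sorbs2 was the most even of the leading genes, with replicates within 0.03 in each tissue. Mab21l2, a developmental regulator, read 9.22 and 8.52 against 6.31 and 7.17 (2.13 ± 0.28, adjusted p = 0.00904), and its adjusted p was 0.072 without aorta replicate 1. Clic6, Gpm6b and Sorbs2 were called whichever of the 8 arrays was left out.

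**Figure D3:**
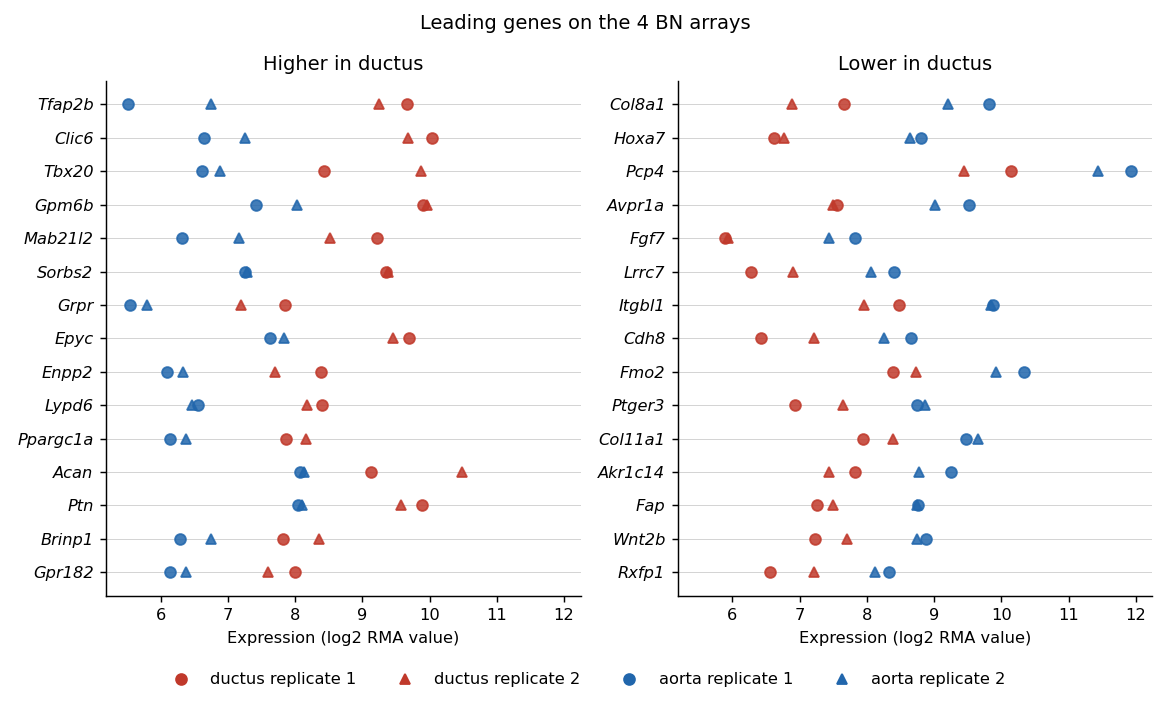
Log2 expression of the 15 leading higher and the 15 leading lower named genes on each of the 4 BN arrays, with red for ductus, blue for aorta, circles for replicate 1 and triangles for replicate 2. In every gene shown both ductus arrays lie on 1 side of both aorta arrays, as the naming rule required. Tbx20 and Acan have the widest gaps between their ductus replicates.

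Secreted ligands and a matrix protein of the TGF-beta superfamily pathways were among the other higher genes. Inhba, the activin A subunit, read 11.84 and 11.53 in the ductus against 10.21 and 10.29 in the aorta (1.44 ± 0.14, adjusted p = 0.00259). Bmp4, a bone morphogenetic protein ligand, read 10.68 and 10.51 against 9.47 and 9.43 (1.14 ± 0.13, adjusted p = 0.004). Tgfbi, a matrix protein induced by TGF-beta, read 9.36 and 8.57 against 7.40 and 7.48 (1.52 ± 0.22, adjusted p = 0.0141). These were the 3 called members of the 34 tested TGF-beta, activin and BMP genes, all higher, while the median of the list was -0.07. The receptors on the list, such as Bmpr2 at 0.09, Acvr2a at 0.03 and Tgfbr1 at -0.08, were not called. Without aorta replicate 1, 1 of the 3 calls, Inhba, was kept.

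Pleiotrophin, Ptn, a heparin-binding growth factor, read 9.89 and 9.57 in the ductus against 8.05 and 8.10 in the aorta, 3.16-fold higher (1.66 ± 0.19, adjusted p = 0.00483). Enpp2, the enzyme autotaxin that makes lysophosphatidic acid, read 8.39 and 7.71 against 6.09 and 6.33 (1.83 ± 0.29, adjusted p = 0.0174). Lypd6, an extracellular modulator of Wnt and nicotinic receptors, read 8.40 and 8.17 against 6.55 and 6.47 (1.77 ± 0.16, adjusted p = 0.00248). Among 34 Wnt genes the secreted antagonist Sfrp1 was higher by 0.83 ± 0.14 (adjusted p = 0.0217) and the ligand Wnt2b was lower by the difference -1.35 ± 0.16 (adjusted p = 0.00589). Sfrp1 and Wnt2b both lost their calls without aorta replicate 1, at adjusted p of 0.185 and 0.0844. Class 3 semaphorins, secreted cues that steer neural crest cells and axons, gave all 3 calls among 31 guidance genes. Sema3d differed by 1.35, Sema3a by 1.19 and Sema3c by 0.62, and none of the 3 was called with either aorta array left out. Sema3b at 0.15, Sema3e at 0.00 and Sema3f at -0.17 were not called.

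Receptors for vasoactive peptides and transmitters moved in both directions. Grpr, the gastrin-releasing peptide receptor, read 7.84 and 7.19 in the ductus against 5.54 and 5.80 in the aorta, 3.60-fold higher (1.85 ± 0.20, adjusted p = 0.00393). The muscarinic receptor Chrm3, which drives smooth muscle contraction, read 8.50 and 7.79 against 6.49 and 7.07 (1.36 ± 0.24, adjusted p = 0.0286). Rgs5, a brake on G protein signalling in pericytes and arterial muscle, read 13.41 and 13.11 against 12.62 and 12.22 (0.84 ± 0.16, adjusted p = 0.0399). Among the lower genes, the vasopressin receptor Avpr1a, a vasoconstrictor receptor, stood out with 7.56 and 7.50 in the ductus against 9.52 and 9.02 in the aorta. Its mean was 3.34-fold lower (-1.74 ± 0.17, adjusted p = 0.00259), and it was called whichever array was left out. The angiotensin receptor Agtr2 differed by -0.86 ± 0.15 (adjusted p = 0.029) and the adrenergic receptor Adra2a by -0.79 ± 0.12 (adjusted p = 0.0163). Of 37 tested vasoactive receptor and RGS genes, 3 were called higher and 3 lower, with a median of 0.02. Avpr1a was the single one of the 6 still called without aorta replicate 1, and 3 were without aorta replicate 2. Rxfp1, the relaxin receptor, read 6.55 and 7.21 against 8.32 and 8.12 (-1.34 ± 0.20, adjusted p = 0.0158).

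The prostaglandin genes, which set the tone of the fetal ductus, gave 1 call among 24. Ptger3, the EP3 receptor, read 6.93 and 7.65 in the ductus against 8.75 and 8.87 in the aorta, 2.86-fold lower (-1.52 ± 0.21, adjusted p = 0.0115). With an aorta array left out its adjusted p was 0.0947 (replicate 1) or 0.0623 (replicate 2). Ptger4, the EP4 receptor through which prostaglandin E2 relaxes the ductus, read 9.60 and 8.82 against 8.83 and 8.16. The lower ductus array thus lay just under the higher aorta array, and the difference of 0.71 ± 0.27 was not called (adjusted p = 0.267). The Ptger4 difference was 0.32 without ductus replicate 1 and 1.11 without ductus replicate 2. The transporter Slco2a1, which takes prostaglandin E2 up for breakdown, differed by 0.50 ± 0.15 (adjusted p = 0.16) with all arrays of the tissues apart. The synthases Ptgs1 at -0.30 and Ptgs2 at -0.42 and the degrading enzyme Hpgd at -0.44 had ductus and aorta values that overlapped or nearly touched and were not called. None of the 30 tested cAMP and cGMP signalling genes was called, and their median was 0.02.

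Potassium channel genes were called in both directions. Kcnmb1, the beta subunit that makes the large-conductance potassium channel more sensitive to calcium, read 11.44 and 11.54 in the ductus against 10.52 and 10.36 in the aorta, 2.07-fold higher (1.05 ± 0.15, adjusted p = 0.0125). Its pore partner Kcnma1 read 8.58 and 9.03 against 9.31 and 9.10 and was not called (-0.40 ± 0.17, adjusted p = 0.316). Kcnq5 was higher by 1.06 ± 0.13 (adjusted p = 0.00599), whereas its relative Kcnq1 was lower (-1.005 ± 0.14, adjusted p = 0.012). Both are voltage-gated potassium channel pores. Kcnab1 at -0.72 and Kcnk6 at -0.69 were the other lower potassium channel genes, so that 2 of 27 were called higher and 3 lower, with a median of -0.02. Kcna5, the oxygen-sensitive Kv1.5 channel, read 8.52 and 9.28 against 9.62 and 9.54, below the aorta on both ductus arrays but not called (-0.68 ± 0.21, adjusted p = 0.167). The Kcna5 difference was -0.30 without ductus replicate 1 and -1.06 without ductus replicate 2. The KATP channel subunits Abcc9 and Kcnj8 differed by 0.73 and 0.41 and were not called. For Abcc9 the difference was 0.39 without ductus replicate 1 and 1.08 without ductus replicate 2.

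The 3 calls on the list of calcium and other cation channels were all higher in the ductus. Trpc5 read 7.04 and 7.02 in the ductus against 5.63 and 6.05 in the aorta (1.19 ± 0.18, adjusted p = 0.0153). Scn7a, an atypical sodium channel, differed by 1.01 ± 0.18 (adjusted p = 0.0313, and 0.057 without ductus replicate 2) and Trpm3 by 0.92 ± 0.12 (adjusted p = 0.0101). These were 3 of 25 tested genes, with a list median of 0.03, and the L-type pore Cacna1c differed by -0.08. None of the 5 potassium channel calls and none of these 3 was kept without aorta replicate 1, and 2 of the 5 and all 3 were without aorta replicate 2. Trpm8, the cold-gated channel and not on the list, was lower (-1.16 ± 0.23, adjusted p = 0.0437) and is named after its values were seen.

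Most contractile smooth muscle genes did not pass the test. Of 21 tested, Sorbs2 and Pln were called higher and none lower, with a median of 0.22. Phospholamban, Pln, the brake on the calcium pump of the sarcoplasmic reticulum, read 7.25 and 7.41 in the ductus against 6.37 and 6.40 in the aorta (0.95 ± 0.12, adjusted p = 0.0088). Its adjusted p was 0.0947 without aorta replicate 1. Myocd, the coactivator of the contractile programme, differed by 0.22, Myh11 by 0.29, Tagln by 0.38 and Actg2 by 1.11, none of them called. The list of cardiac muscle genes gave no call among 23, with a median of 0.07. Outside the lists, other muscle genes were found among the higher calls after their values were seen. Myoz2, a calcineurin-binding protein of the Z-disc, differed by 1.07 ± 0.12 (adjusted p = 0.004), and the Popeye genes Popdc3, Popdc2 and Bves, membrane proteins that bind cAMP, differed by 0.91, 0.76 and 0.65. All 3 Popeye genes are in the called set, and none of the 4 stayed called without aorta replicate 1. Popdc2 also lost the call without either ductus array, and Bves without ductus replicate 2.

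Ppargc1a, the coactivator that raises mitochondrial gene expression, read 7.87 and 8.17 in the ductus against 6.14 and 6.38 in the aorta, 3.39-fold higher (1.76 ± 0.17, adjusted p = 0.00248). It was the single call among 24 fatty acid and mitochondrial regulators, whose median was -0.07, and it stayed called whichever array was left out. The stress-induced factor Atf3 differed by 1.23 ± 0.25 (adjusted p = 0.0437) and was the single call among 21 immediate early genes. It lost the call when ductus replicate 1 or either aorta array was left out (adjusted p of 0.0659, 0.142 and 0.193). The growth hormone receptor, Ghr, differed by 0.77 ± 0.14 (adjusted p = 0.0338) and the IGF-binding-protein protease Pappa by 0.77 ± 0.15 (adjusted p = 0.0378), the 2 calls among 17 genes of that axis. Without an aorta array neither kept its call. Aldh1a1, which makes retinoic acid, differed by 0.81 ± 0.12 (adjusted p = 0.0141) and was the single call among 15 retinoic acid genes. It was dim, at 6.54 and 6.42 in the ductus against 5.66 and 5.67 in the aorta, below the median of 7.48 over all values. Slc7a3, a cationic amino acid transporter, was the single call among 23 hypoxia and stress genes (-0.97 ± 0.18, adjusted p = 0.0369). The Slc7a3 call was lost without ductus replicate 1 (adjusted p = 0.0577), without either aorta array (0.267 and 0.0583) and with the arrays centred on the brighter genes. None of the 22 mitosis and replication genes was called.

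Collagen genes were lower in the ductus. Col8a1, a short-chain collagen of remodelling vessels, read 7.66 and 6.89 in the ductus against 9.81 and 9.21 in the aorta, 4.71-fold lower (-2.23 ± 0.26, adjusted p = 0.00483). Col11a1, a fibril-nucleating collagen, read 7.94 and 8.39 against 9.47 and 9.66 (-1.40 ± 0.16, adjusted p = 0.00553). Col3a1, a main fibrillar collagen of arteries, read 10.97 and 10.96 against 12.13 and 11.91 (-1.05 ± 0.13, adjusted p = 0.00732). In each of the 3 genes both ductus arrays lay well below both aorta arrays. Col14a1 at -0.74, Col1a2 at -0.67 and Col5a2 at -0.63 were also called, so that 6 of 11 tested collagens were lower and none higher, with a median of -0.63. In 10 of the 11 both ductus arrays lay below both aorta arrays, the exception being Col23a1 at 0.13. Over all genes tested 18.5% lay below in this way and 0.82% were called lower. Without aorta replicate 1 no collagen call was kept, without aorta replicate 2 or ductus replicate 1 there were 3 kept, and without ductus replicate 2 all 6 were. With the arrays centred on the brighter genes 3 of the 6 passed the test.

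Elastic fibre genes gave fewer calls. Loxl1, an enzyme that crosslinks elastin, read 10.92 and 10.94 in the ductus against 11.97 and 11.62 in the aorta (-0.87 ± 0.15, adjusted p = 0.0279) and was the single call among 21, lost without aorta replicate 1. Elastin itself, Eln, read 13.46 and 13.32 against 13.65 and 13.63, a difference of -0.26 ± 0.13 that was not called (adjusted p = 0.419). Lox at -0.21, Fbln5 at -0.07 and Fbln1 at 0.06 were not called either. The median of the 21 genes was -0.21. Both ductus arrays lay below both aorta arrays in 9 of the 21, Eln and Lox among them, and above in 2. Over all genes tested these shares were 18.5% and 18.7%. The elastin probe set lies near the top of the measured range, which ended at 14.2.

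Proteoglycan and matricellular genes went both ways. Epyc, a small leucine-rich proteoglycan best known from cartilage, read 9.69 and 9.46 in the ductus against 7.62 and 7.83 in the aorta, 3.60-fold higher (1.85 ± 0.13, adjusted p = 0.000884). Aggrecan, Acan, a large hyaluronan-binding proteoglycan, read 9.12 and 10.48 against 8.07 and 8.13, 3.25-fold higher (1.70 ± 0.34, adjusted p = 0.0424). The SD of Acan was 0.96 in the BN ductus against 0.0025 and 0.084 in the F344 ductus and aorta, whose spread enters this SE. Epyc was even between replicates, whereas ductus replicate 2 held the high aggrecan value, and the aggrecan call was lost without either aorta array (adjusted p of 0.261 and 0.145). The cushion genes Has2, the hyaluronan synthase, and Vcan, the versican core protein, differed by 0.88 ± 0.27 and 0.41 ± 0.14 and were not called (adjusted p of 0.157 and 0.213). For Has2 the difference was 1.32 without ductus replicate 1 and 0.45 without ductus replicate 2.

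On the list of proteoglycan and matricellular genes, the matricellular calls were all lower in the ductus. The matrix protein Tgfbi, counted above with the TGF-beta genes, was called higher. Itgbl1, a secreted integrin-beta-like protein, read 8.48 and 7.96 against 9.88 and 9.85 in the aorta (-1.64 ± 0.18, adjusted p = 0.00393). Ccn5 differed by -1.21 and Ccn4 by -0.90, both of the CCN family, osteopontin, Spp1, by -1.15, and Sparcl1 by -0.72. Over the 31 tested genes of this list 2 were called higher and 5 lower, with a median of -0.11. Without aorta replicate 1 the single call kept was Epyc, and without aorta replicate 2 there were 4 of the 7.

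The matrix proteases Adamts9 and Adamts1, which cleave versican and aggrecan, were higher in the ductus. Adamts9 read 10.50 and 9.73 in the ductus against 8.51 and 8.71 in the aorta (1.505 ± 0.22, adjusted p = 0.0154). Adamts1 read 11.16 and 10.66 against 9.91 and 9.63 (1.14 ± 0.18, adjusted p = 0.0206). Both were higher on ductus replicate 1 than on replicate 2, and replicate 2 still lay above both aorta arrays. The membrane metalloproteinase Mmp16 differed by 0.91 ± 0.13 (adjusted p = 0.0146) and the protease inhibitor Serpine2 by -0.81 ± 0.15 (adjusted p = 0.0313). Of 27 tested proteases and inhibitors 3 were called higher and 1 lower, with a median of -0.15. Both ductus arrays lay below both aorta arrays in 13 of the 27 and above in 6, beside 18.5% and 18.7% of all genes. All 4 calls were kept without either ductus array, none without aorta replicate 1 and 1, Mmp16, without aorta replicate 2.

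Hox genes, which record position along the body axis, gave 4 calls, all lower in the ductus. Hoxa7 read 6.61 and 6.76 in the ductus against 8.80 and 8.64 in the aorta, 4.10-fold lower (-2.04 ± 0.12, adjusted p = 0.000285), and was called whichever array was left out. Hoxc5 read 5.21 and 5.28 against 7.09 and 6.79 (-1.70 ± 0.22, adjusted p = 0.00836). Hoxc4 differed by -0.75 and Hoxd4 by -0.71. These 4 of 18 tested Hox genes were called lower and none was called higher, while the median was -0.05. Both ductus arrays lay below both aorta arrays in 8 of the 18 and above in 4, beside 18.5% and 18.7% of all genes. In F344, 7 of the 18 were called lower and 3 higher, beside 14.0% of all genes called in either direction. Of the paralog group 3 genes, Hoxd3 at 0.58 and Hoxb3 at 0.28 were not called. With the arrays centred on the brighter genes 3 of the 4 were called, without aorta replicate 1 Hoxa7 alone, and without aorta replicate 2 there were 2.

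Genes of fibroblasts and growth factors were among the strongest lower calls. Fgf7, a fibroblast-made growth factor for epithelium, read 5.89 and 5.93 in the ductus against 7.82 and 7.43 in the aorta, 3.28-fold lower (-1.72 ± 0.17, adjusted p = 0.00259). Fap, a fibroblast surface protease, read 7.25 and 7.50 against 8.76 and 8.74 (-1.38 ± 0.13, adjusted p = 0.00248). Pdgfra, the PDGF receptor of fibroblasts, read 8.81 and 9.55 against 10.23 and 10.22 (-1.05 ± 0.21, adjusted p = 0.0409). Fgf7 and Fap were even between ductus replicates, and Pdgfra was not. With Fgf16 at -0.71 these made 3 lower calls (Fgf7, Pdgfra and Fgf16) among 35 FGF, PDGF, VEGF and angiopoietin genes, of which Fgf7 alone was kept without aorta replicate 1 and 1 without aorta replicate 2. Pdgfra and the scavenger receptor Scara5 (-0.77) were the 2 calls among 12 adventitial fibroblast markers, both lost without either aorta array and with the arrays centred on brighter genes or loess-normalized. The list averaged 9.95 and 9.81 in the ductus and 10.11 and 9.97 in the aorta. Both ductus means thus lay below both aorta means, though the closest 2, at 9.954 and 9.967, were nearly equal.

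Other lower genes with named roles were Pcp4, a calmodulin regulator, at 10.14 and 9.44 in the ductus against 11.93 and 11.44 in the aorta (-1.90 ± 0.23, adjusted p = 0.0068). Cdh8, a cell adhesion cadherin, differed by -1.64, Lrrc7, a synaptic scaffold protein, by -1.65, Fmo2, a flavin monooxygenase, by -1.56, and the steroid-metabolizing enzyme Akr1c14 by -1.38. Each had both ductus arrays below both aorta arrays, as the rule for naming these genes required, and their calls were lost without aorta replicate 1. Gli1, the transcriptional target of Hedgehog signalling (-0.82 ± 0.12, adjusted p = 0.0158), and Nox4, the oxidase that makes hydrogen peroxide in vascular muscle (-0.88 ± 0.15, adjusted p = 0.025), are named after their values were seen. The 16 Notch genes gave no call, with a median of -0.21. Notch3, the receptor of arterial smooth muscle, was the nearest to one at -0.58 ± 0.13 (adjusted p = 0.07).

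**Figure D4:**
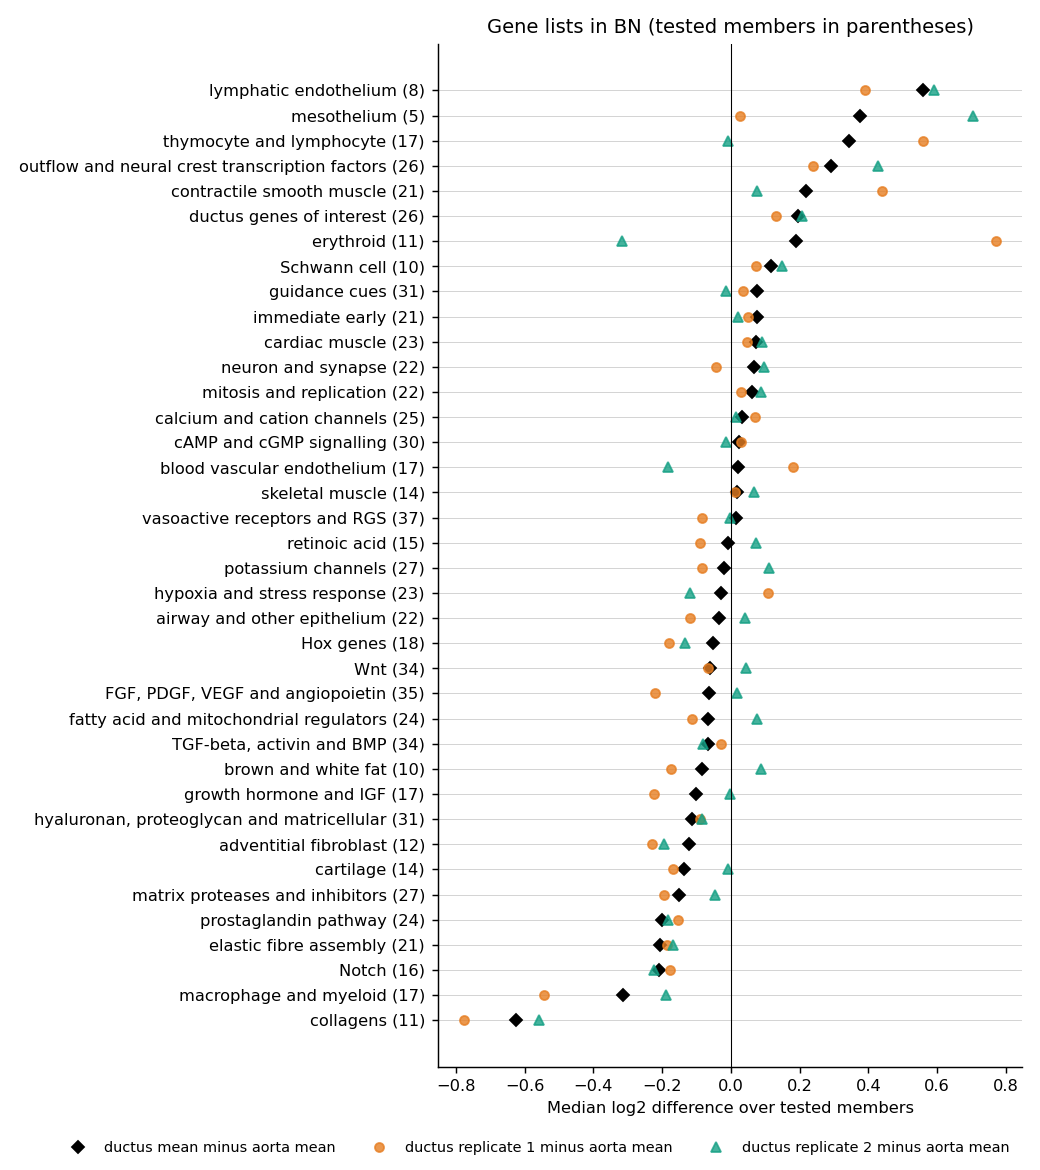
Median log2 difference between BN ductus and BN aorta over the tested members of each gene list (number in parentheses), with black diamonds for the ductus mean, orange circles for ductus replicate 1 alone and green triangles for replicate 2 alone, each against the aorta mean. The collagen median is -0.63 and lies below 0 on both ductus arrays, while the erythroid median is 0.77 on replicate 1 and -0.32 on replicate 2.

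A list of 26 genes often studied in the ductus had 3 calls, all higher (Tfap2b, Ghr and Rgs5), and a median of 0.19, and Tfap2b alone was kept without ductus replicate 1 or without either aorta array.

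Markers of other tissues that a dissected ductus could carry gave few calls. Blood vascular endothelial markers gave none among 17, with mean levels of 8.72 and 8.49 in the ductus and 8.59 and 8.63 in the aorta. Neuronal genes gave none among 22, Schwann cell genes none among 10, skeletal muscle genes none among 14 and fat genes none among 10. Among epithelial genes 1 of 22, keratin 8 (Krt8), was called, lower in the ductus at -0.88 ± 0.16 (adjusted p = 0.0338). Among cartilage genes 1 of 14 was called, and that gene was aggrecan. The cartilage list averaged 6.91 and 7.30 in the ductus against 6.95 and 7.20 in the aorta, so it did not separate the tissues, though both its replicate 2 values were the higher ones. The part of cartilage in the aggrecan value was not tested.

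The same tissue difference was measured in F344, where 2028 genes (14.0%) were called. Of the 88 genes called higher in the BN ductus, chemosensory genes aside, 83 had a positive difference in F344 and 66 were called higher there. Of the 119 lower genes, 117 had a negative difference in F344 and 102 were called lower there. The strains share no array, but they do share the spread estimated from all 8. Tfap2b differed by 3.77 and Clic6 by 3.10 in F344, next to 3.32 and 2.90 in BN. Col8a1 differed by -3.07 and Hoxa7 by -1.70, next to -2.23 and -2.04.

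No gene passed the test for a tissue difference that differs between the strains (limma interaction, 0.0%), and the smallest adjusted p was 0.107. At an unadjusted p under 0.05 there were 1403 such genes, 58 of them among the 207 BN calls outside the chemosensory families. The number passing was 50 without BN ductus replicate 1 and 56 without BN ductus replicate 2. The gene with the smallest adjusted p was Ppargc1a, which differed by 1.76 in BN and 0.10 in F344, an interaction of 1.66 ± 0.23. Itgbl1 differed by -1.64 in BN and -0.00 in F344 (interaction -1.64 ± 0.25, adjusted p = 0.143). Pln differed by 0.95 in BN and -0.12 in F344 (interaction 1.06 ± 0.18, adjusted p = 0.185). Sema3c (0.62 and -0.41) also had opposite signs in the strains, with an interaction adjusted p of 0.22. Rxfp1 differed by -1.34 in BN and lay near 0 in F344 (0.04 ± 0.20), with an interaction adjusted p of 0.278. Its mean was 6.88 in the BN ductus and 6.87 in the F344 ductus, against 8.22 in the BN aorta and 6.82 in the F344 aorta. Tbx20 (2.39 and 0.78) and Acan (1.70 and 0.36), the genes with uneven ductus replicates, had interaction adjusted p of 0.387 and 0.437. In this fit no named gene passed the test of a strain difference, which does not show that the strains are alike.

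**Figure D5:**
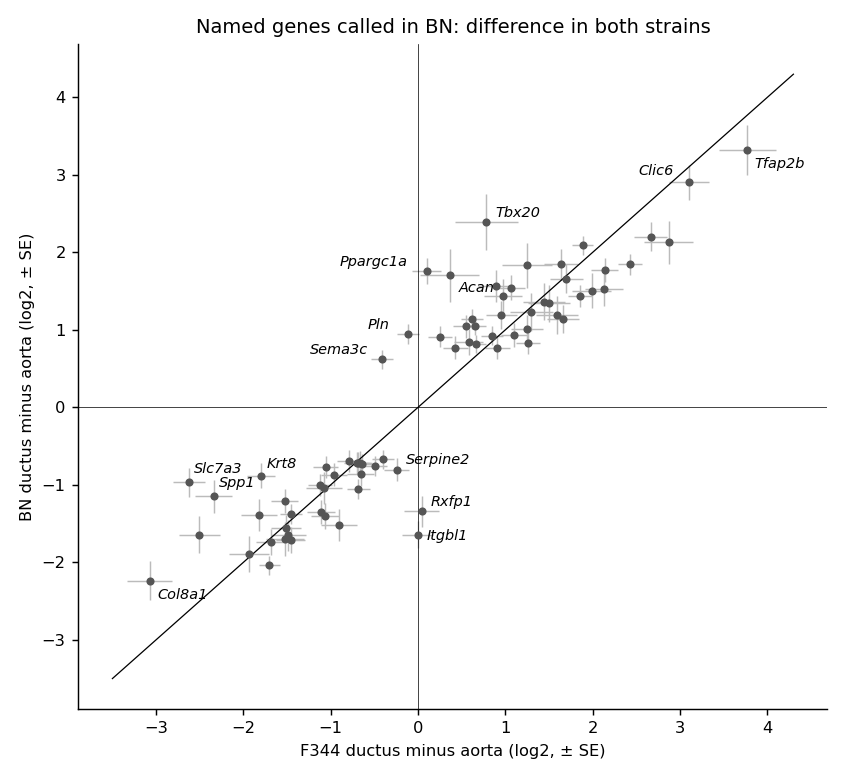
Log2 difference ductus minus aorta with its SE in F344 (horizontal) and BN (vertical) for the named genes called in BN, with the diagonal marking equal differences. Tfap2b and Clic6 lie near the diagonal, Ppargc1a, Tbx20 and Acan lie above it, and Itgbl1 and Rxfp1 lie near 0 on the F344 axis.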

How the data were processed

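Total RNA of pooled vessels was hybridised to 1-colour Affymetrix arrays, 2 for each strain and vessel. The authors deposited log2 values made with RMA, per the submitters' processing notes. RMA settings: not given in the sources used here. Of 29215 probe sets, 15310 had 1 gene symbol in GEO's platform annotation, 323 several and 13582 none listed. Each of 14506 genes was represented by its brightest probe set on average over all 8 arrays, and 15279 probe sets had an Entrez identifier listed in RefSeq. Array medians ran from 7.39 to 7.55. The number of arrays, 2 a group, limits the precision.

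Group means were fitted to all 8 arrays with limma 3.58.1 in R 4.3.3 (lmFit, contrasts.fit, eBayes, with 4 residual and 5.25 prior degrees of freedom). The fit was tried on simulated data with independent errors and, for each gene, the same spread on all 8 arrays. The groups here differed in spread, so the simulation cannot give the error rate of the BN comparison. Named genes were the 15 with the largest difference each way among called genes at least 2-fold apart, without overlap between tissues, with the mean of the brighter tissue above the median of 7.48, and passing over chemosensory and unnamed loci, plus up to 5 called members of each of 38 lists, a list of ductus genes whether called or not, and the 10 genes each way that most separated the ductus replicates. Other list members complete a count or serve as uncalled examples and were picked after their values were seen. The members and lists were chosen with earlier results of these data known. Alternatives covered the fit, the scaling, the filter on dim genes, the probe set rule and each array left out. Cyclic loess and a replicate block within strain were added after seeing the data.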

Additional observations from a re-analysis of the deposited data

How the results depend on the processing

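Of the named genes, the 96 chosen for their tissue difference or list were refitted, and each kept its direction under every alternative except for Fbln1, which turned to -0.18 without BN ductus replicate 2 and -0.08 without BN aorta replicate 2, with no call either way and a highest value of 0.29 with 1 array left out. The number of calls moved widely. It was 262 as reported (143 higher, 119 lower), 16 with only the 4 BN arrays (11 and 5), 100 with array weights (59 and 41) and 170 without dim genes (69 and 101). Of the 73 named genes called, 14 kept the call with only the BN arrays and 48 with array weights. In the fit without dim genes 49 of the 73 were tested, and all 49 kept the call. Without the chemosensory receptor genes 95 were higher, and with the arrays centred on the brighter genes 68 were lower. With 1 array left out the count ranged from 16 to 600 (10 to 446 higher, 6 to 216 lower), and the interaction count from 0 to 56. Under the scalings the median of all genes lay between -0.0377 and 0.0484, beside -0.00 as reported. The labels give no pairing beyond the number. The correlation of replicate deviations was 0.521 between the BN vessels, 0.224 between the F344 vessels, 0.196 between the ductus groups, 0.148 between the aorta groups, 0.346 between BN aorta and F344 ductus and 0.0279 between BN ductus and F344 aorta, so that 1 of these pairs of groups did not exceed 0.1. With the replicate block 548 genes were called (338 higher, 210 lower) and 2 for the interaction (Nupr1 and Ppargc1a, neither called without the block). With a replicate block within strain there were 922 (589 and 333) and 20. The other fits, scalings and probe set rule kept the counts within 1.5 times. The cause of these changes was not tested.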

Other observations

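Chemosensory receptor genes (odorant, vomeronasal, trace amine and taste receptors) made up 1283 of the genes tested and are not known for a role in arteries. In BN their median difference between ductus and aorta was 0.39, and 788 of them had both ductus arrays above both aorta arrays while 11 had both below. The median was 0.254 after repeated quantile normalization, 0.443 with the arrays centred on brighter genes and 0.256 after cyclic loess. It was 0.537 without ductus replicate 1 and 0.235 without ductus replicate 2. Among the 13223 other genes the median was -0.02, with 1928 higher and 2677 lower on all arrays.

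Of the called genes, 3 had ductus replicates at least 1 log2 unit apart: Tbx20, Acan and Car8. Car8, a carbonic anhydrase relative without enzyme activity, read 7.94 and 6.93 in the ductus and 6.01 and 5.84 in the aorta (1.51 ± 0.27, limma adjusted p = 0.0286), and is named after its values were seen. Slc7a11, the cystine transporter, read 7.64 and 5.64 in the ductus and 5.33 and 5.18 in the aorta. Slc5a7, the choline transporter, read 7.70 and 9.63 in the ductus and 6.25 and 7.39 in the aorta. Both of these transporters were above both aorta arrays on each ductus array, though far apart between the 2 ductus samples, and neither was called.

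Among diacylglycerol kinases, which end diacylglycerol signals, Dgkb (1.25) and Dgkg (0.76) were called higher in the ductus and Dgki (-0.68) lower. Dgkg lost the call without ductus replicate 2 and Dgki without ductus replicate 1. Lama1, a laminin chain of basement membranes, differed by 1.35, and Gnao1, a G protein subunit, by 1.20, both called higher. The cholesterol regulator Insig1 (-0.83), the thyroid hormone receptor Thrb (-0.81) and the cysteine protease Ctss of myeloid cells (-1.19) were called lower, beside macrophage markers whose mean was 7.45 and 7.70 in the ductus and 7.96 and 7.91 in the aorta. The part of macrophages in the Ctss value was not tested. Thrb lost the call without ductus replicate 2. These genes were named after their values were seen.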
